A study of Drosophila melanogaster with 6 samples.

Results

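The coatomer is the protein coat of COPI vesicles, and its subunit genes together with ArfGAP1, which encodes a regulator of the coat, were followed in embryos lacking the bZIP transcription factor CrebA. The genes were taken by symbol from the platform's probe annotation. Of the 8 genes listed, 7 had a probe set that names that gene alone, with 1 probe set each, out of 11982 genes and 18769 probe sets. The missing gene was beta'COP, for which no probe set was named, and it was not analysed here. Total RNA of Drosophila melanogaster was hybridised to Affymetrix arrays, 3 from CrebA null embryos and 3 from wild-type embryos. The mutants carry no functional CrebA and were picked by a COPAS biosorter, which sorts whole embryos, as those without the GFP carried by the balancer chromosome, and the allele is not stated in the labels. The wild-type embryos also went through the sorter, and no strain is named for them. Both genotypes were collected over 8 h and aged for 11 h more, and the labels give stage 11 as the youngest and either stage 15 or stage 17, depending on the field, as the oldest.

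COPI vesicles bud from the Golgi and carry escaped residents of the endoplasmic reticulum (ER), cargo receptors and Golgi enzymes back towards the ER. The small GTPase Arf1, once loaded with GTP, recruits the coatomer to the membrane as a preformed complex, and GTP hydrolysis stimulated by ArfGAP1 allows the coat to come off. The subunits alpha, beta' and epsilon build an outer, cage-like part, while beta, gamma, delta and zeta build an inner, cargo-facing part related to the clathrin adaptors. In Drosophila embryos coatomer is known to be needed for secretion by the salivary gland and the trachea, and CrebA for high expression of secretory genes there.

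The arrays were comparable in scale, with means of 6.39 (log2) on every array. In both genotypes the replicate 2 array was set off from the rest on the first principal component (53.5% of the variance), at 20.1 for CrebA null and 53.5 for wild type, against -36.8 to -3.20 for the other arrays. All 7 genes were highest on replicate 2 in both genotypes, so calls are also given with the replicate number as a block and without the replicate 2 arrays. The annotation names no probe set for CrebA, and the genotype was therefore not checked on the mutated gene. Of 53 markers listed for 10 tissues or stages, 46 were measured. No marker lay within the Tag controls (probe sets foreign to the fly) on all 6 arrays. The markers Hml, Fbp1, brp, osk and Jon25Bi lay within them on some arrays. The labels do not say whether replicates are separate collections, and the spread that p-values measure may be technical.

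All 7 measured genes had lower mean levels in CrebA null embryos, as did 54.5% of all genes, with log2 changes of -1.43 to -0.75 and a median of -0.92, against a median of -0.02 over all genes. Transcripts of alphaCOP and ArfGAP1 fell (limma, adjusted p under 0.05), and the other 5 did not pass this test. Of all genes, 1.02% were called lower by the same rule and 1.9% higher, and no COPI gene was called higher. With the replicate number as a block all 7 were called lower, at adjusted p-values of 0.000892 to 0.00232, against 9.21% of all genes. Without the replicate 2 arrays 6 of the 7 were called lower, all but epsilonCOP, against 2.7% of all genes. Genotypes did not overlap for 5 of the 7 genes, while 10.2% of all genes were lower in CrebA null embryos with no overlap. In RNA from whole embryos, fewer cells of a type that expresses these genes and less RNA per cell cannot be told apart.

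**Figure D1:**
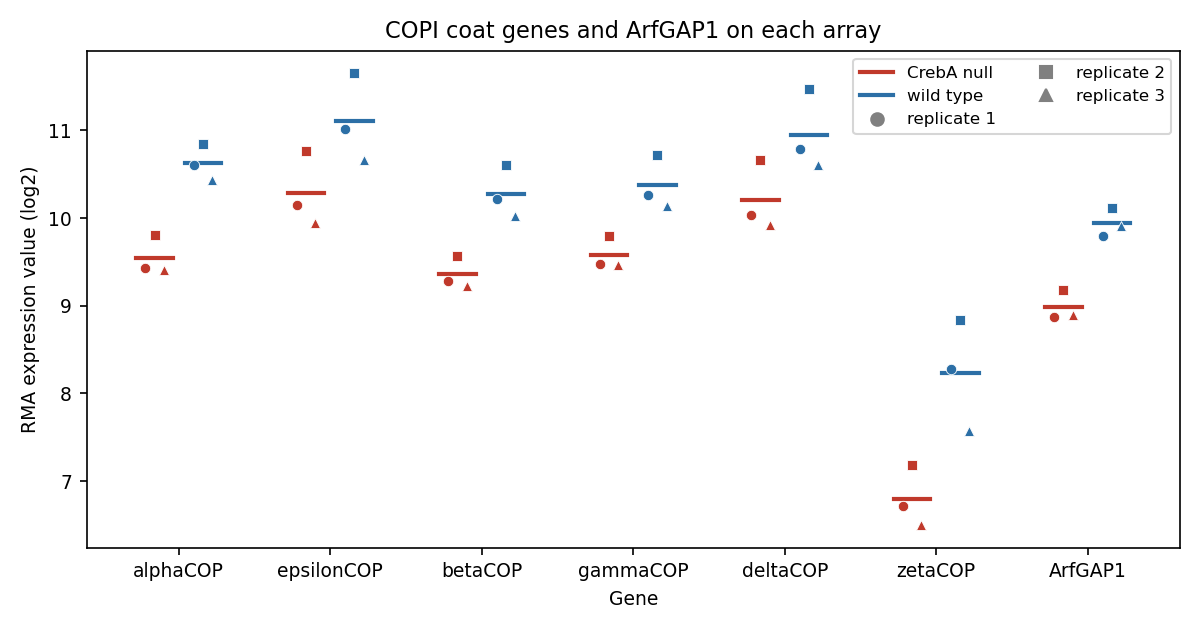
RMA expression values (log2) of the 7 measured genes on each array, with CrebA null (red) to the left of wild type (blue), one symbol shape per replicate number and a bar at each mean of 3 arrays. Every red bar lies below its blue bar, and the square, replicate 2, is the highest point of each group.

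The outer part of the coat was represented by alphaCOP and epsilonCOP. The subunit alphaCOP carries a propeller domain that reads dilysine retrieval signals on returning cargo. Its level was 9.43, 9.81 and 9.41 in the CrebA null arrays and 10.61, 10.85 and 10.43 in the wild-type arrays (log2, replicates 1, 2 and 3). The groups did not overlap, and the lowest wild-type array lay 0.625 above the highest CrebA null array. The mean was 9.55 ± 0.22 in CrebA null and 10.63 ± 0.21 in wild type (SD, n = 3 each), a log2 change of -1.08 (SE 0.16, limma adjusted p = 0.0323), which left 47.3% of the wild-type level. This was the 119th largest fall among 11982 genes.

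The subunit epsilonCOP is a small helical-repeat protein that binds and, in yeast, stabilises alphaCOP. Its level was 10.15, 10.77 and 9.95 in the CrebA null arrays and 11.02, 11.65 and 10.66 in the wild-type arrays. The groups overlapped, because the CrebA null array of replicate 2 lay above the wild-type array of replicate 3. The log2 change was -0.82 (SE 0.32, limma adjusted p = 0.32), and with the replicate block the adjusted p was 0.00179. Within same-numbered arrays the differences were -0.86, -0.88 and -0.72 for replicates 1, 2 and 3, with an SD of 0.0917, while the SD between replicates was 0.43 in CrebA null and 0.50 in wild type.

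The inner part was represented by all 4 of its subunits. The large subunits betaCOP and gammaCOP each contact Arf1 on the membrane. Levels of betaCOP were 9.29, 9.57 and 9.23 in the CrebA null arrays, against 10.22, 10.60 and 10.02 in the wild-type arrays. Levels of gammaCOP were 9.48, 9.79 and 9.46 in the CrebA null arrays, against 10.27, 10.72 and 10.14 in the wild-type arrays. Neither gene's groups overlapped, and neither gene passed the test without the block. The log2 change of betaCOP was -0.92 (SE 0.18, limma adjusted p = 0.0626, and 0.00149 with the block), and its call is the one that turned under another scaling, on ribosomal protein genes (adjusted p = 0.0429). The log2 change of gammaCOP was -0.80 (SE 0.18, limma adjusted p = 0.0947, and 0.00232 with the block).

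The medium subunit deltaCOP pairs with betaCOP, and the small subunit zetaCOP pairs with gammaCOP. Levels of deltaCOP were 10.03, 10.66 and 9.92 in the CrebA null arrays, against 10.79, 11.47 and 10.60 in the wild-type arrays. As for epsilonCOP, the groups overlapped through CrebA null replicate 2 and wild type replicate 3. The log2 change of deltaCOP was -0.75 (SE 0.29, limma adjusted p = 0.328, and 0.00202 with the block), the smallest of the 7. Its same-numbered differences were -0.75, -0.81 and -0.68, with an SD of 0.0625.

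Levels of zetaCOP were 6.72, 7.19 and 6.50 in the CrebA null arrays, against 8.28, 8.84 and 7.57 in the wild-type arrays. The groups did not overlap, but the wild-type arrays spread over more than a log2 unit. The mean was 6.80 ± 0.35 in CrebA null and 8.23 ± 0.63 in wild type (SD, n = 3 each), a log2 change of -1.43 (SE 0.35, limma adjusted p = 0.113, and 0.00149 with the block). This difference was numerically the largest of the 7, 2.69-fold, and ranked 50th among all genes. A second probe set lists zetaCOP together with CG5946 and cannot be assigned to either. Its levels were 10.09, 10.41 and 10.00 in the CrebA null arrays and 11.00, 11.57 and 10.83 in the wild-type arrays, a log2 change of -0.97 (SE 0.22, limma adjusted p = 0.0958).

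ArfGAP1 encodes the GTPase activating protein that acts on Arf1 at the Golgi. Its level was 8.87, 9.18 and 8.89 in the CrebA null arrays and 9.80, 10.11 and 9.91 in the wild-type arrays. The groups did not overlap, with a gap of 0.621 between the lowest wild-type and the highest CrebA null array. The mean was 8.98 ± 0.17 in CrebA null and 9.94 ± 0.16 in wild type (SD, n = 3 each), a log2 change of -0.96 (SE 0.13, limma adjusted p = 0.0253), which left 51.4% of the wild-type level. Its replicates were the closest of the 7 genes in both genotypes, and its same-numbered differences of -0.93, -0.93 and -1.02 had an SD of 0.0523.

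**Figure D2:**
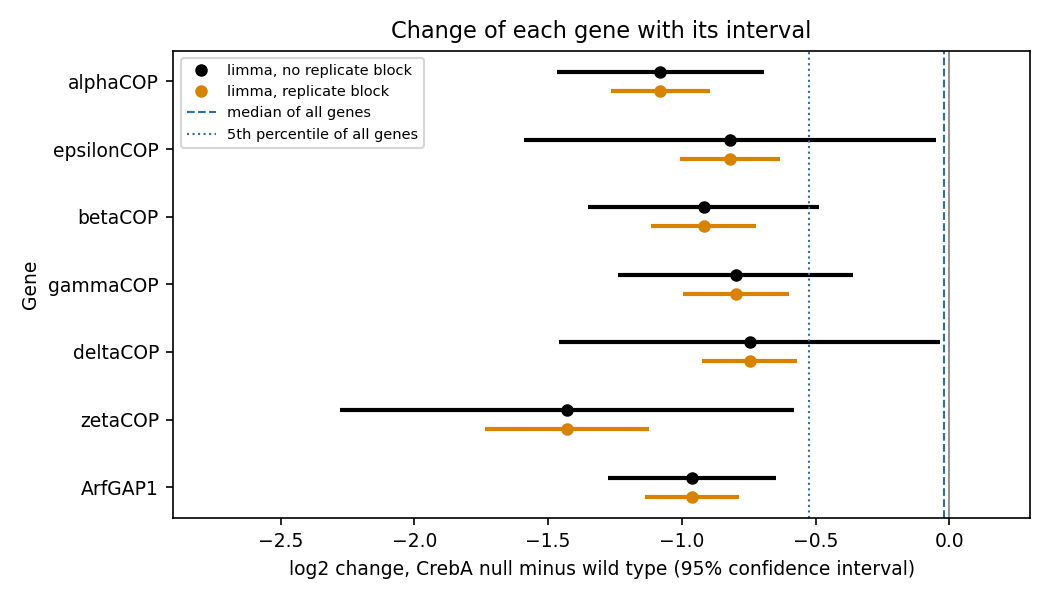
Log2 change of each gene, CrebA null minus wild type, with its 95% confidence interval without (black) and with (orange) the replicate number as a block, beside the median (dashed) and the 5th percentile (dotted) of all genes. All 7 estimates lie below the 5th percentile of all genes, -0.52, and the intervals narrow with the block.

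The test without the block rests on few arrays. Neither alphaCOP nor ArfGAP1 passed when CrebA null replicate 1 or 3, or any 1 wild-type array, was left out, and both did without CrebA null replicate 2. All 7 changes were negative in each of these fits, between -1.76 and -0.49.

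The 7 genes followed a shared course over the arrays. Their mean level was 9.14, 9.57 and 9.05 in CrebA null replicates 1, 2 and 3, and 10.14, 10.61 and 9.91 in wild type replicates 1, 2 and 3. The highest CrebA null mean therefore lay below the lowest wild-type mean. All 21 same-numbered differences of the 7 genes were negative, from -1.65 to -0.68. They come from the same 6 arrays and from genes that vary together, so they are not 21 separate observations. For the 5 genes whose groups did not overlap, the sign follows from that. The SD of these differences was 0.0523 to 0.309, and for each gene it was smaller than the SD between replicates of either genotype. High replicate 2 arrays in both genotypes can narrow it, so it does not show that the numbers mark pairs. Pearson's r over the 6 arrays between a gene and the mean of the other 6 was 0.942 (ArfGAP1) to 0.996 (gammaCOP), a description that holds both the genotype difference and the replicate 2 arrays.

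**Figure D3:**
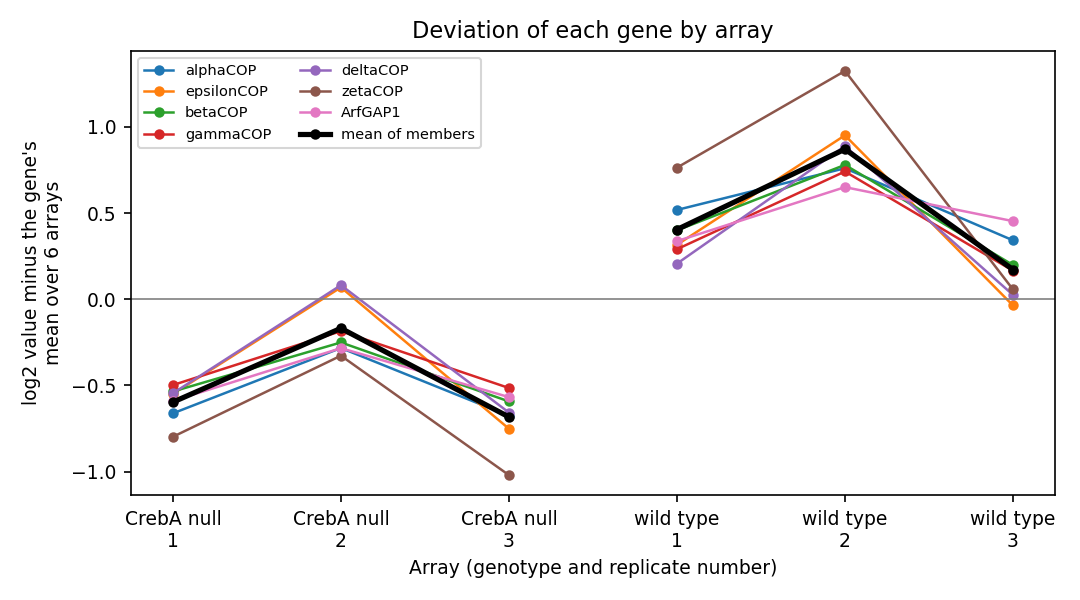
Each gene's log2 value minus its own mean over the 6 arrays, for CrebA null replicates on the left and wild-type replicates on the right, with the mean of the 7 genes in black. Lines join the values of 1 gene within a genotype and imply no order of replicates. The mean lies at -0.60, -0.17 and -0.68 in CrebA null and at 0.40, 0.87 and 0.17 in wild type.

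The subunits are built into one complex in fixed proportion. The change of each gene relative to the mean of all 7 on the same array was therefore also set out. That mean includes the gene itself and ArfGAP1, which is not a coat subunit. The relative changes therefore balance out over the 7 genes, and the larger fall of zetaCOP raises those of the others. For alphaCOP, epsilonCOP, betaCOP, gammaCOP and ArfGAP1 the relative change lay between -0.11 and 0.17 (log2), with values that overlapped between genotypes. For zetaCOP it was -0.46, with relative levels of -0.20, -0.16 and -0.34 in CrebA null and 0.36, 0.45 and -0.12 in wild type. The CrebA null values lay below the wild-type ones by a narrow margin. This departure of zetaCOP was seen on 1 probe set. The probe set shared with CG5946, which cannot be assigned to either gene, changed by -0.97 (95% interval with the block -1.19 to -0.75). The mean of the 7 genes also changed by -0.97. For deltaCOP the relative change was 0.22, with relative levels of 0.05, 0.25 and 0.03 in CrebA null and -0.20, 0.02 and -0.15 in wild type. Its lowest CrebA null value, 0.025, lay just above its highest wild-type value, 0.018. These 2 genes were singled out after their values were seen, and the differences between genes were not tested. Without the block the 95% intervals of all 7 changes overlapped. With the block the interval of zetaCOP, -1.74 to -1.12, lay apart from those of betaCOP, epsilonCOP, gammaCOP and deltaCOP, the nearest of which was that of betaCOP at -1.12 to -0.72, with a gap under the rounding.

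The genes that act with the coat were taken as further lists. Of 16 genes for Arf GTPases, their exchange factors and their GTPase activating proteins (GAPs), 9 were measured, and Arf1 and its Golgi exchange factor gene garz were not among them. None of the 9 was called by limma, 1 was lower and 2 higher at an unadjusted p under 0.05 (7.73% and 9.92% of all genes), and the median log2 change was -0.13. The 2 largest changes pointed in opposite directions, 0.67 (SE 0.14, limma adjusted p = 0.0838) for the GAP-family gene drongo and -0.66 (SE 0.19, adjusted p = 0.17) for ArfGAP3, whose product is the other GAP known for work on COPI vesicles. ArfGAP3 had levels of 9.43, 9.92 and 9.24 in CrebA null and 10.09, 10.34 and 10.15 in wild type. With the block drongo was called higher and ArfGAP3 lower, at adjusted p-values of 0.00355 and 0.0104, against 12.6% of all genes called higher and 9.21% lower.

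At the ER end of the COPI route, where vesicles tether and fuse, 1 of 6 measured genes was called lower by limma, against 1.02% of all genes. All 6 changes were negative, with a median log2 change of -0.54. The called gene was Sec20, an ER SNARE that receives COPI vesicles. Sec20 had levels of 6.64, 6.63 and 6.70 in CrebA null and 7.72, 7.98 and 7.89 in wild type, a log2 change of -1.21 (SE 0.09, limma adjusted p = 0.00641). It missed the threshold only without CrebA null replicate 1 (adjusted p = 0.06), among the alternatives run on it. KdelR encodes the receptor that returns ER residents in COPI vesicles, and is named here after its values were seen. It had a log2 change of -0.75 (SE 0.17, limma adjusted p = 0.0954, and 0.00205 with the block). With the block 5 of the 6 were called lower, against 9.21% of all genes.

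The p24 proteins are cargo receptors whose tails bind coatomer. None of 5 measured genes was called by limma, with a median log2 change of -1.17, and 4 were lower at an unadjusted p under 0.05, against 7.73% of all genes. With the block 4 were called lower, against 9.21% of all genes. The largest changes were -1.33 (SE 0.25, limma adjusted p = 0.0575) for loj and -1.17 (SE 0.27, adjusted p = 0.102) for eca. Levels of loj were 9.89, 10.39 and 9.59 in CrebA null and 11.21, 11.62 and 11.03 in wild type, which did not overlap.

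Coats of other steps were set beside the COPI coat. In the COPII coat, which buds vesicles from the ER, 1 of 5 measured genes was called lower by limma, against 1.02% of all genes. With the block 4 were called lower, against 9.21%. All 5 changes were negative, with a median log2 change of -0.67. The gene called by limma was Sec31, an outer COPII subunit (log2 change -0.86, SE 0.15, limma adjusted p = 0.046). Levels of Sec31 were 9.62, 9.29 and 9.62 in CrebA null and 10.58, 10.18 and 10.35 in wild type. Its adjusted p was 0.0562 to 0.166 when any 1 array was left out, and 0.0525 to 0.0648 with quantile normalization, scaling on ribosomal protein genes, a filter on dim probe sets or an intensity trend. Of 12 measured genes for clathrin and its adaptors, including the relatives of the inner coatomer subunits, none was called by limma. Their median log2 change was -0.21, with a range of -0.55 to 0.06, and 3 were lower at an unadjusted p under 0.05 (7.73% of all genes) and 3 called lower with the block (9.21% of all genes). The largest changes there were -0.55 (SE 0.18, limma adjusted p = 0.229) for cm and -0.35 (SE 0.10, adjusted p = 0.169) for g, both subunits of the lysosomal adaptor AP-3. Whether the changes differ between lists was not tested.

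**Figure D4:**
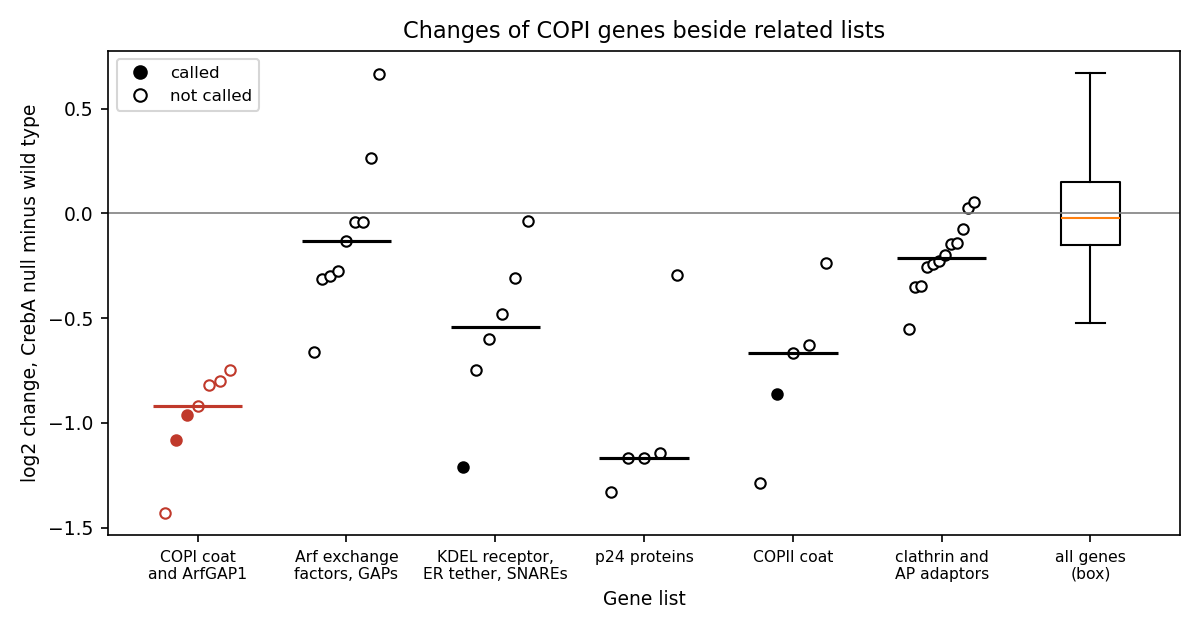
Log2 change, CrebA null minus wild type, of each measured gene in the COPI list (red) and in 5 related lists (black), with a line at each list's median and filled points for genes called by limma at an adjusted p under 0.05. The box shows all 11982 genes, with whiskers at the 5th and 95th percentiles. The COPI genes lie between -1.43 and -0.75, and the clathrin and adaptor genes between -0.55 and 0.06.

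Genes outside the list were ranked by Pearson's r of their log2 values with the mean of the 7 genes over the 6 arrays, among 4408 genes with an SD of at least 0.3. The 8 highest were CtsB, sll, Sec13, CG30291, Svip, Gnpnat, Pop4 and CHOp24, with r of 0.995 to 0.999. Their products include a lysosomal protease (CtsB), the Golgi transporter of the sulfate donor (sll), a COPII subunit (Sec13), a subunit of ribonuclease P (Pop4) and a p24 protein (CHOp24). The log2 change of CtsB was -0.66, with levels of 11.22, 11.55 and 11.20 in CrebA null and 11.92, 12.24 and 11.78 in wild type. The profile they were chosen on holds the genotype difference and the high replicate 2 arrays, so their lower levels in CrebA null follow from the choice. In all, 240 genes had an r over 0.95.

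Of the 46 tissue and stage markers, 4 were called lower and 2 higher by limma, and with the replicate block 10 were called lower and 7 higher. Of all genes, 1.02% were called lower and 1.9% higher by limma, and 9.21% lower and 12.6% higher with the block. At an unadjusted p under 0.05, 7.73% of all genes were lower and 9.92% higher. These shares apply to each marker count below, and no list was tested against them. None of 8 salivary gland markers was called, 3 were lower at an unadjusted p under 0.05 and 4 were called lower with the block. Their median log2 change was -0.31, with 7 of 8 changes negative. Their summed linear level was 5229 to 9911 in CrebA null and 6051 to 10117 in wild type, and its spread followed the bright gene ps, with levels of 12.47, 10.93 and 12.72 in CrebA null and 12.57, 10.69 and 12.50 in wild type. The salivary gland factor sage had a log2 change of -0.97 (SE 0.18, limma adjusted p = 0.057, and 0.00266 with the block). Tracheal markers, with 1 of 4 called lower with the block, summed to 5626 to 7579 in CrebA null and 6825 to 9317 in wild type. Epidermal markers, with 0 of 4 called in either fit and 0 at an unadjusted p under 0.05, summed to 2743 to 4231 in CrebA null and 3410 to 5401 in wild type.

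Glial markers, 2 of 4 called lower and 3 with the block, summed to 1992 to 2369 in CrebA null and 2997 to 3619 in wild type. The difference of the sums followed in large part the brightest of them, nrv2. Its levels were 9.86, 9.86 and 9.79 in CrebA null and 10.88, 10.84 and 10.56 in wild type. The marker moody went the other way, with a log2 change of 0.35 (limma adjusted p = 0.857), and overlapped between genotypes. None of 4 muscle markers was called by limma, 2 were higher at an unadjusted p under 0.05, and all 4 were called higher with the block, at adjusted p-values of 0.00448 to 0.023. They summed to 18204 to 24326 in CrebA null and 12161 to 18141 in wild type. Of 5 midgut markers, mex1, named for its midgut expression, fell by 3.84 on the log2 scale (limma adjusted p = 0.00429). The protease genes alphaTry and Jon25Bi rose by 1.28 (limma adjusted p = 0.0214) and 0.63 (adjusted p = 0.0203). Wild-type levels of Jon25Bi, 4.91, 4.88 and 4.88, lay near the highest Tag controls of those arrays, 4.99, 5.28 and 4.81. The midgut sums were 1023 to 1166 in CrebA null and 3259 to 4150 in wild type, and their difference followed mex1. Its levels were 7.31, 7.95 and 7.48 in CrebA null and 11.30, 11.78 and 11.18 in wild type. The other markers, GATAe and betaTry, overlapped between genotypes, with log2 changes of -0.11 (limma adjusted p = 0.92) and 0.28 (adjusted p = 0.485).

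Of 4 fat body markers, the lipid transfer gene Mtp fell, with a log2 change of -1.04 (limma adjusted p = 0.0493). The others were not called, with log2 changes of 0.12 for apolpp, -0.09 for Lsp2 and -0.24 for Fbp1 (limma adjusted p = 0.969, 0.781 and 0.219). The list summed to 5632 to 11824 in CrebA null and 4969 to 13641 in wild type. These sums followed the bright gene apolpp, with mean levels of 13.03 in CrebA null and 12.91 in wild type. Haemocyte markers, with 1 of 5 called higher with the block, summed to 8832 to 12738 in CrebA null and 6832 to 10057 in wild type. Neuronal markers summed to 2542 to 3949 in CrebA null and 3126 to 4741 in wild type. Maternal and early markers summed to 355 to 541 in CrebA null and 310 to 719 in wild type. None of these last 2 lists' 8 markers was called by limma in either fit or had an unadjusted p under 0.05. The part of such shifts in the COPI values was not tested.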

How the data were processed

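The deposited table holds log2 expression values of 18952 probe sets on 6 arrays, made by the authors with RMA and Partek, per the submitters' processing notes, with no version, order or filter given. The log base is an inference from their range. Leaving out 183 Affymetrix controls gave 18769 probe sets, of which 13647 had 1 gene symbol, 402 several and 4720 none in the platform annotation. Where several probe sets named 1 gene alone, the brightest on average stood for it. The number of arrays limits the precision.

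The main test was a two-sided limma 3.58.1 fit (lmFit and eBayes, R 4.3.3) of genotype on the deposited log2 values, with p-values adjusted by Benjamini-Hochberg over all 18769 probe sets and calls at an adjusted p under 0.05. The scripts were tested on simulated data. Same-numbered arrays deviated together from their genotype means (r of 0.639, 0.852 and 0.563 over probe sets, all over the bar of 0.1). The titles' replicate numbers were therefore treated as pairs in fits with a block. Arrays of different numbers were not compared. Deviations within a genotype cancel out, so replicate 2 arrays set apart in both genotypes can raise r for the other numbers. These r values therefore do not show that the numbers mark pairs. No label says what a number shares. Levels were set against 17 Tag controls, whose highest value was 4.71 to 5.28 per array, and the lowest level of the 7 genes was 6.50. The related lists held 50 symbols, of which 37 were measured. Marker sums add the linear values, 2 to the power of the deposited ones.

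Named were all members, the called genes of each related list or otherwise its 2 largest changes, and the 8 genes most like the members. The members and lists were chosen with earlier results of these data known. Alternatives were scaling, variance models, array weights, a filter on dim probe sets, the choice of probe set, the threshold and leaving out arrays. Figures were drawn with matplotlib 3.10.9.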

Additional observations from a re-analysis of the deposited data

How the results depend on the processing

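All 7 genes kept a negative change in the 15 alternatives run on them, from -1.76 to -0.49. Not all of these could change a sign. The replicate block, the variance models, the dim filter and the mean of a gene's probe sets return the main estimates by construction. The calls depended on how the spread between arrays was modelled. With the replicate block 7 of the 7 were called lower, with unchanged estimates (-0.82 for epsilonCOP, -0.92 for betaCOP, -0.80 for gammaCOP, -0.75 for deltaCOP and -1.43 for zetaCOP among those newly called), 17 genes of the related lists, and 1342 lower and 1788 higher probe sets in place of 2, 171 and 267. The block changed no call of alphaCOP or ArfGAP1. With array weights 7 members (-0.83 for epsilonCOP, -0.91 for betaCOP, -0.77 for gammaCOP, -0.73 for deltaCOP and -1.47 for zetaCOP), 15 related genes and 1109 and 1335 probe sets were called, against 7.08% of all genes called lower. At an adjusted p under 0.10 the counts were 4, 6, 359 and 535 (2.31% of all genes lower). Without the replicate 2 arrays, chosen after seeing the data, they were 6, 13, 424 and 581 (betaCOP -0.86, gammaCOP -0.73, deltaCOP -0.72, zetaCOP -1.32).

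Scaling on ribosomal protein genes added betaCOP (-0.92), and quantile normalization left 1 related gene called. Leaving out 1 array gave 0 to 2 members called, 0 to 1 related genes, 15 to 121 lower and 23 to 159 higher probe sets. The change then ran from -1.21 to -0.97 for alphaCOP, -1.06 to -0.88 for ArfGAP1, -1.05 to -0.76 for betaCOP, -0.91 to -0.63 for gammaCOP, -0.97 to -0.49 for deltaCOP, -1.06 to -0.55 for epsilonCOP and -1.76 to -1.13 for zetaCOP. The causes of these shifts in calls were not tested.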

Other observations

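The genes that were highest or lowest on the replicate 2 arrays in both genotypes were counted in each list after the values were seen, and no difference between lists was tested. All 7 COPI genes and all 5 p24 genes were highest on replicate 2 in both genotypes, as were 38.6% of all genes. In the COPII list 1 of 5 genes, Sec13, was highest there in both genotypes, and 3, Sec24AB, Sec24CD and Sec31, were lowest there in both, as were 24.1% of all genes. Levels of Sec24CD were 9.44, 9.04 and 9.61 in CrebA null replicates 1, 2 and 3, and 10.27, 9.68 and 10.14 in the wild-type ones. Of the 12 clathrin and adaptor genes 6 were highest and 3 lowest on replicate 2 in both genotypes, as were 2 and 4 of the 9 Arf-related genes and 3 and 2 of the 6 genes at the ER end of the route. What sets the replicate 2 arrays apart was not tested.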
